A study of Gallus gallus with 12 samples.

Results

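Transcripts of 7 costimulatory genes, CD80, CD86, CD28, CTLA4, ICOS, CD40 and CD40LG, were followed in the sperm reservoir of the hen after mating and after infusion of seminal fluid. The genes were found by the symbol that each array feature carries in its name, and every feature with such a symbol was kept. This gave 8 of the 37374 features, because ICOS was present both as a RefSeq and as an Ensembl transcript. A further 2 features, CD28_CHICK and CD40L_CHICK, carry protein entry names of CD28 and CD40LG in place of the gene symbol, and they are shown beside the 8 but not counted with them.

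The tissue was the utero-vaginal junction (UVJ), the oviduct segment whose tubules store sperm, of 12 White Leghorn layer hens, and RNA of the whole tissue was hybridised to custom NimbleGen arrays. There were 3 groups of 4 hens: hens left without mating or insemination (control), hens each paired with a male of the same breed (mated), and hens that received sperm-free seminal fluid into the cloaca (SF). The UVJ was taken 24 h after treatment, along with that of the controls. Each mated hen had her own male, the seminal fluid came from the males used for mating and was pooled within each male, and sperm were looked for in the tubules of the mated hens before the arrays were run. The control hens received no fluid and no sham infusion, so the fluid and the procedure cannot be told apart. All arrays lay on 1 slide, with controls at array numbers 1 to 4, mated hens at 5 to 8 and SF hens at 9 to 12, so place on the slide and treatment cannot be told apart either.

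T lymphocytes need a costimulatory signal beside the antigen signal to become fully active. CD80 and CD86 on antigen-presenting cells bind CD28, which gives this signal, and CTLA4, which binds them more tightly and restrains the T cell. ICOS is a relative of CD28 that appears on activated T cells and supports their help to B cells. CD40LG, also a protein of activated T cells, binds CD40 on B cells, macrophages and dendritic cells, and that signal in turn raises CD80 and CD86 there. These roles are known mainly from human and mouse, where the pathway is studied for tolerance as well as for defence in the reproductive tract.

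Array medians lay between intensities of 1077 and 1102, and the random-sequence control lay at log2 3.81 to 3.95. Every array value of the 10 features lay above that control, by 0.99 log2 units for the lowest, CTLA4 of SF replicate 3. Each feature summarised 3 probes. Levels are given as log2 intensity, on which a difference of 1 is a doubling, and differences as log2 fold changes, each followed by its standard error (SE) from limma. With Benjamini-Hochberg adjustment in limma 0 of 37374 features passed in any comparison, and the smallest adjusted p was 0.912 for mating, 0.735 for SF-infusion and 0.641 between the treatments. All calls below are therefore at an unadjusted p under 0.05, a level that 828 (2.22%), 2417 (6.47%) and 1756 (4.7%) of the features reached in these comparisons. Both treatments were compared with the same 4 control hens.

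Of the 8 features, CD80 and CD40LG passed the unadjusted threshold in mating versus control, both higher after mating, where 1.35% of all features passed as higher and 0.867% as lower. The same 2 features passed in SF-infusion versus control, again higher in the treated hens, where the shares over all features were 4.15% higher and 2.32% lower. In both comparisons these were also the features whose groups did not overlap, against 0.843% and 2.47% of all features with the treated hens higher. Between mated and SF hens 0 of 8 passed, beside 2.04% of all features higher and 2.66% lower in mated hens. The median difference over the 7 genes, taking the brighter ICOS feature, was 0.35 after mating, 0.25 after SF-infusion and 0.31 between the treatments, and over all features it was 0.0007, 0.0089 and -0.0068. The mating median depended on 1 hen, which also entered the median between the treatments. Without mated replicate 4 the mating values of ICOS (-0.19), CD86 (-0.47), CTLA4 (-0.03) and CD40 (-0.009) lay below 0. Between the treatments CD28 was then 0.20 (0.61 with all hens), CD80 0.19 (0.32) and CTLA4 0.40 (0.90). The medians were not computed without this hen. Because the RNA came from whole tissue, a change in the number of cells that carry a transcript and a change in its level per cell cannot be told apart in any of these values.

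**Figure D1:**
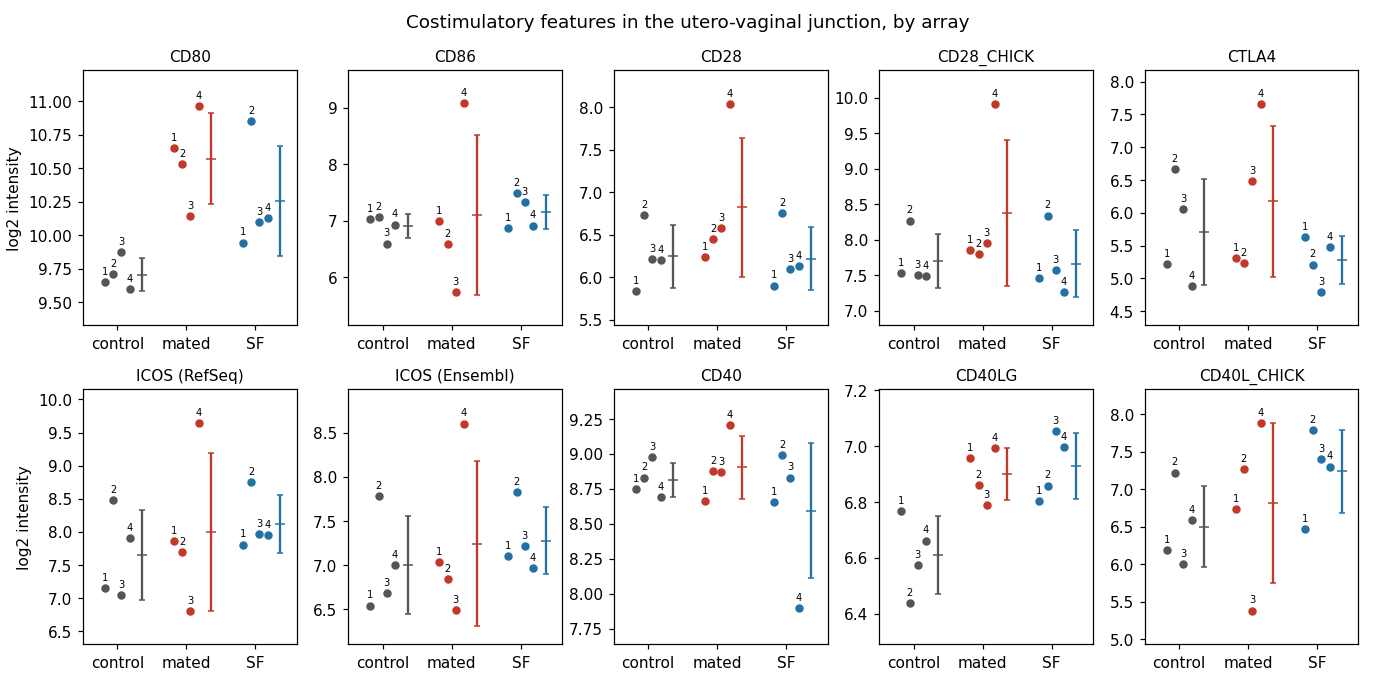
Log2 intensity of the 8 costimulatory features and of CD28_CHICK and CD40L_CHICK on each of the 12 arrays, 1 panel per feature with its own axis. Points are single hens with their replicate number, and the bars beside them are the group mean and SD (n = 4). CD80 and CD40LG are the panels in which all control points lie under all treated points, and mated replicate 4 is the highest point in 9 of the 10 panels.

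CD80, the B7 ligand listed under this symbol on the array, was the member with the most marked difference. Its accession is named CD88 in the RefSeq table of the GRCg7b assembly, with CD80 as a synonym. In that table the gene overlaps TIMMDC1, for which no value was found on the array. ADPRH, on its other side without overlap, differed by -0.38 after mating (unadjusted p = 0.01662 in limma). After SF-infusion ADPRH differed by -0.23 (unadjusted p = 0.1128 in limma). Whether the CD80 feature also reads a neighbouring gene was not tested. The 4 control hens lay at log2 9.65, 9.71, 9.87 and 9.60. The mated hens lay at 10.65, 10.54, 10.15 and 10.96, all above the highest control. The SF hens lay at 9.95, 10.86, 10.10 and 10.13, also all above it, though SF replicate 1 exceeded control replicate 3 by little. The treated groups overlapped each other, and SF replicate 2 stood well above the other SF hens.

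The group levels of CD80 were 9.71 ± 0.12 in control, 10.57 ± 0.34 in mated and 10.26 ± 0.41 in SF hens (SD, n = 4). After mating CD80 was 0.87 higher (SE 0.21, 95% interval 0.40 to 1.33), which is 1.82-fold, with an unadjusted p of 0.001782 and an adjusted p of 0.9999 in limma. The feature held rank 25 of 37374 by p in that comparison. After SF-infusion it was 0.55 higher (SE 0.21, 95% interval 0.08 to 1.01), or 1.46-fold, with an unadjusted p of 0.02494 and an adjusted p of 0.7354 in limma. Mated and SF hens differed by 0.32 (95% interval -0.15 to 0.78, unadjusted p = 0.1616 in limma), a difference within the spread between hens. The exact two-sided permutation test of 4 hens against 4 gave p = 0.02857 for either treatment against control, the smallest value this design allows.

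The mating difference of CD80 held when any hen was left out, between 0.74 and 1.01. The SF difference did not: it was 0.35 without SF replicate 2 (unadjusted p = 0.06834 in limma), and it also missed the threshold without control replicate 1 (0.53, unadjusted p = 0.05112 in limma) or control replicate 4 (0.51, unadjusted p = 0.05696 in limma). With the array number in the model neither difference of CD80 passed (unadjusted p = 0.06317 and unadjusted p = 0.519 in limma), a fit in which array number and treatment share most of their variation.

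CD86, the other B7 ligand, which binds the same receptors, did not separate the groups. Control hens lay at 7.03, 7.06, 6.60 and 6.94. Mated hens lay at 6.998, 6.59, 5.73 and 9.08, so that this group held both the lowest and the highest of the 12 values. SF hens lay at 6.88, 7.49, 7.33 and 6.92. The SD was 1.42 among mated hens beside 0.21 and 0.30 in control and SF hens. The differences were 0.19 after mating (SE 0.55, 95% interval -1.01 to 1.40) and 0.25 after SF-infusion (SE 0.55, 95% interval -0.96 to 1.45), with unadjusted p of 0.7291 and 0.6602 in limma.

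Mated replicate 4 decided the sign of the mating value of CD86. Without this hen the difference was -0.47 against control (unadjusted p = 0.1265 in limma) and -0.71 against SF hens (unadjusted p = 0.02873 in limma), compared with -0.05 between the treatments when all hens were in. The intervals above leave room for a difference in CD86 as large as that of CD80 in either treatment.

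CD28, the activating receptor on T cells, lay at 5.83, 6.73, 6.22 and 6.20 in control and at 5.90, 6.75, 6.09 and 6.13 in SF hens, and these groups covered nearly the same range. In mated hens it lay at 6.24, 6.45, 6.57 and 8.03. Mated replicate 4 exceeded every other hen by more than the whole range of the others. The difference was 0.58 after mating (SE 0.36, 95% interval -0.23 to 1.38, unadjusted p = 0.1419 in limma) and -0.03 after SF-infusion (SE 0.36, 95% interval -0.83 to 0.78). Without mated replicate 4 the mating value was 0.17.

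The feature CD28_CHICK also had mated replicate 4 highest, at its own level, though the other hens did not keep the same order. Control hens lay between 7.49 and 8.27, mated hens at 7.85, 7.80, 7.96 and 9.91, and SF hens between 7.27 and 8.34. Its differences were 0.68 (SE 0.45) and -0.04 (SE 0.45), neither past the threshold, and the mating value was 0.17 without mated replicate 4. Across the 12 hens the features named for CD28 correlated at r = 0.97 (permutation p = 4e-05, adjusted over 3 pairs 6e-05; Spearman rho = 0.85, permutation p = 0.00086), and at 0.82 without mated replicate 4 and SF replicate 2, the hens farthest from the median.

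CTLA4, the inhibitory receptor for the same ligands, varied widely among control hens (SD 0.81), which lay at 5.22, 6.67, 6.05 and 4.88. Mated hens lay at 5.31, 5.24, 6.49 and 7.66 and SF hens at 5.62, 5.21, 4.79 and 5.48, so all groups overlapped. CTLA4 differed by 0.47 after mating (SE 0.54, 95% interval -0.72 to 1.66) and by -0.43 after SF-infusion (SE 0.54, 95% interval -1.62 to 0.76). Between the treatments it was 0.90 higher in mated hens (95% interval -0.29 to 2.09, unadjusted p = 0.1257 in limma). Without mated replicate 4 the difference after mating was -0.03, and that between the treatments was 0.40.

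ICOS was read by features that share the symbol but not the transcript source. The RefSeq feature lay at 7.16, 8.48, 7.05 and 7.91 in control, 7.87, 7.70, 6.81 and 9.65 in mated and 7.81, 8.76, 7.96 and 7.95 in SF hens. The Ensembl feature lay at 6.54, 7.78, 6.69 and 7.01 in control, 7.04, 6.84, 6.49 and 8.60 in mated and 7.10, 7.83, 7.21 and 6.97 in SF hens. In both, mated replicate 4 was highest and mated replicate 3 lowest of the 12. The RefSeq feature differed by 0.35 after mating and 0.47 after SF-infusion (SE 0.54 for each) and the Ensembl feature by 0.24 and 0.28 (SE 0.43 for each), and none of the 4 values passed. The features for ICOS correlated at r = 0.97 across the 12 hens (permutation p = 1e-05, the smallest the permutations can give; Spearman rho = 0.92, permutation p = 8e-05), and at 0.95 without mated replicates 3 and 4.

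ICOS, CTLA4 and CD28 follow each other in the order of genes in the reference table, with no other protein-coding gene between them. Their features had the same mated hen at the top, yet CTLA4 differed in sign from ICOS after SF-infusion, each within its error. ICOSLG, the ligand of ICOS on antigen-presenting cells and other tissues, differed by -0.06 after mating and -0.42 after SF-infusion (SE 0.42 for each).

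CD40, the receptor for CD40LG on B cells and antigen-presenting cells, varied little among control hens (SD 0.12), which lay at 8.75, 8.83, 8.98 and 8.69. Mated hens lay at 8.66, 8.87, 8.87 and 9.20, around the same level. SF hens lay at 8.66, 8.99, 8.83 and 7.90, and SF replicate 4 was the lowest of the 12. CD40 differed by 0.09 after mating (SE 0.21, 95% interval -0.38 to 0.56) and by -0.22 after SF-infusion (SE 0.21, 95% interval -0.69 to 0.25). The SF value became 0.01 without SF replicate 4.

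CD40LG, the partner of CD40 on activated T cells, was the other member whose groups separated. Control hens lay at 6.77, 6.44, 6.58 and 6.66. Mated hens lay at 6.96, 6.86, 6.79 and 6.99 and SF hens at 6.80, 6.86, 7.06 and 6.998, so the lowest hen of either treated group lay just above control replicate 1. In intensity units this was 86.8 to 109 in control, 111 to 127 in mated and 112 to 133 in SF hens, at percentile 20.4 of all features by signal. In the reference table CD40LG lies between VGLL1 and ARHGEF6 and overlaps neither. VGLL1 differed by 1.36 after mating (unadjusted p = 0.3253 in limma) and by 3.45 after SF-infusion (unadjusted p = 0.02445 in limma). ARHGEF6 differed by 0.19 and 0.33, neither past the threshold. Whether the CD40LG feature also reads a neighbouring gene was not tested.

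The group levels of CD40LG were 6.61 ± 0.14, 6.90 ± 0.09 and 6.93 ± 0.12 in control, mated and SF hens (SD, n = 4). It was 0.29 higher after mating (SE 0.10, 95% interval 0.07 to 0.51), or 1.22-fold, with an unadjusted p of 0.01495 and an adjusted p of 0.9999 in limma. It was 0.32 higher after SF-infusion (SE 0.10, 95% interval 0.10 to 0.54), or 1.25-fold, with an unadjusted p of 0.00895 and an adjusted p of 0.7354 in limma. Mated and SF hens differed by -0.03 (95% interval -0.25 to 0.19). The exact two-sided permutation p was 0.02857 for each treatment against control.

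Leaving out any hen kept both CD40LG values past the threshold, between 0.23 and 0.34 after mating, with the highest p 0.04971 in limma, and between 0.26 and 0.37 after SF-infusion. With the array number in the model CD40LG was 0.21 higher after mating (unadjusted p = 0.2854 in limma) and 0.15 higher after SF-infusion (unadjusted p = 0.6437 in limma), neither past the threshold.

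The feature CD40L_CHICK gave another picture of the same gene name. Control hens lay at 6.19, 7.22, 5.999 and 6.59, mated hens at 6.73, 7.27, 5.38 and 7.88 and SF hens at 6.47, 7.78, 7.40 and 7.30, and all groups overlapped. It differed by 0.32 after mating (SE 0.49, 95% interval -0.77 to 1.40) and by 0.74 after SF-infusion (SE 0.49, 95% interval -0.34 to 1.82), neither past the threshold. Its correlation with CD40LG over the 12 hens was r = 0.40 (permutation p = 0.1948, Spearman rho = 0.66 with permutation p = 0.02467), or 0.20 once each group was centred on its mean. For the other gene names with a pair of features, CD28 and ICOS, r was 0.97. Control replicate 2, for example, was the lowest of all hens for CD40LG and the highest of the controls for CD40L_CHICK. The call for CD40LG rests on the RefSeq feature alone.

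**Figure D2:**
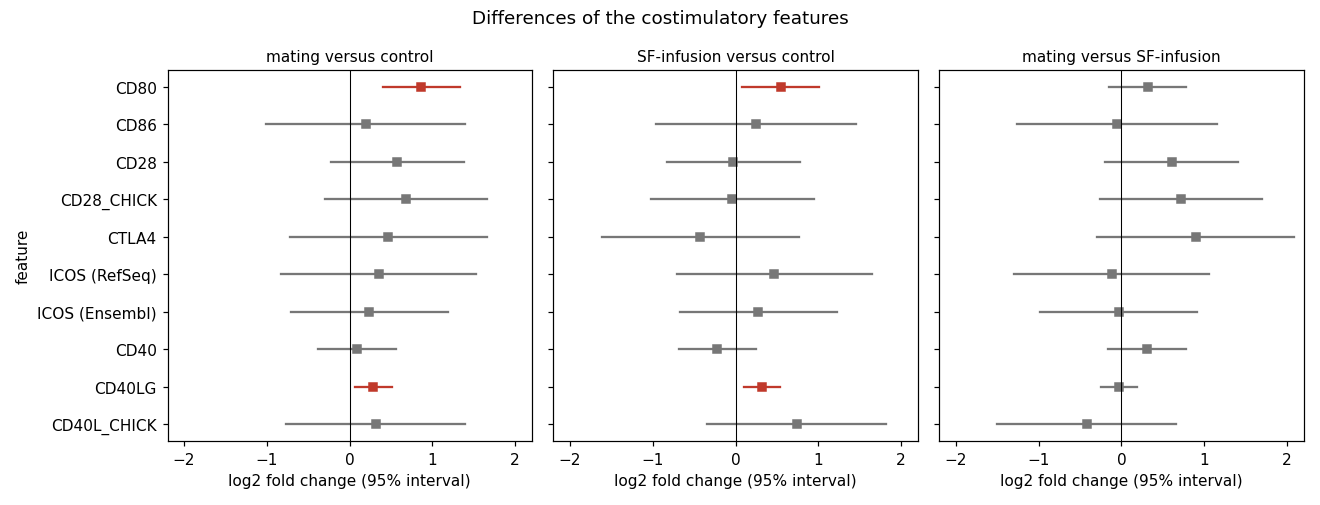
Log2 fold change of each feature with its 95% interval from limma, in panels for mated against control, SF against control and mated against SF hens. Squares are estimates and bars intervals, and red marks an unadjusted p under 0.05. CD80 (0.87 and 0.55) and CD40LG (0.29 and 0.32) are the features whose intervals lie above 0 in both comparisons with control, and CD40LG has the narrowest intervals.

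Over the 8 features, mated replicate 4 was the highest of the 12 hens for 7, all except CD40LG, for which SF replicate 3 was highest. Mated replicate 3 was the lowest for 3. The same hen, mated replicate 4, stood apart in leukocyte markers. The T lymphocyte score, the mean of 16 markers of the T cell lineage without the costimulatory genes and centred over the 12 arrays, was 1.17 in this hen. It lay between -0.61 and 0.27 in control hens, from -0.31 to 0.39 in the other mated hens and between -0.15 and 0.32 in SF hens. The macrophage and dendritic cell score was 1.08 in mated replicate 4, against -0.54 to 0.01 in the other mated hens, -0.40 to 0.06 in controls and -0.36 to 0.30 in SF hens.

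The summed intensity of the 16 T lymphocyte markers was 12453 to 25873 in control, 13800.0 to 34136 in mated and 17578 to 23702 in SF hens, and 0 of the 16 lay at or below the random control on all arrays. CD3E, CD3D and CD8A, defining components of the T cell receptor complex and its coreceptor, differed by 0.44, 0.53 and 0.52 after mating and by 0.43, 0.62 and 0.41 after SF-infusion, with 0 of the 3 past the threshold. CD8A is given by its brightest feature, which differed by 0.11 between mated and SF hens (unadjusted p = 0.7668 in limma). Another CD8A feature, NM_001048080, with a lower mean level of log2 5.26, was 1.08 lower in mated than in SF hens (log2 fold change -1.08, SE 0.46, unadjusted p = 0.03853 in limma), so the features of this gene differed.

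The members differed in how they followed this score across hens. CD28 correlated with it at r = 0.89 (permutation p = 0.00086, adjusted p = 0.00455 over 20 relations; rho = 0.64, permutation p = 0.03015, adjusted 0.0861). The RefSeq and Ensembl features of ICOS did so at 0.84 (permutation p = 0.00091) and 0.86 (permutation p = 0.00137), with rho of 0.64 for both (permutation p = 0.03013 and 0.02773). CD28_CHICK did so at 0.86 (permutation p = 0.00244; rho = 0.57, permutation p = 0.05972). Without mated replicates 2 and 4, the hens farthest from the median score, r was 0.73 for CD28, 0.81 and 0.91 for ICOS and 0.67 for CD28_CHICK. Without mated replicate 4 alone r was 0.70 for CD28, 0.66 and 0.685 for ICOS and 0.60 for CD28_CHICK. CD40L_CHICK correlated at 0.74 (permutation p = 0.00535; rho = 0.79, permutation p = 0.00356), and at 0.71 without those hens. After the adjustment over 20 relations, the p of these r stayed under 0.05, and among these relations to the T lymphocyte score rho did so for CD40L_CHICK alone (adjusted p = 0.0433).

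CTLA4 and CD40 followed the score less once those hens were out. For CTLA4 r was 0.60 (permutation p = 0.04251, adjusted p = 0.0567, rho = 0.24 with permutation p = 0.442). For CD40 it was 0.45 (permutation p = 0.1288, rho = 0.50 with permutation p = 0.1042). Without mated replicates 2 and 4 these r became 0.22 and 0.14. Without mated replicate 4 alone they were 0.096 and 0.20. CD86 followed the macrophage and dendritic cell score at r = 0.91 (permutation p = 0.00046, adjusted p = 0.00455; rho = 0.58, permutation p = 0.05152), and at 0.51 without mated replicates 3 and 4, so the strength of this relation rested on those hens. ICOS and CD40L_CHICK followed this score as well as the T lymphocyte score. The RefSeq feature of ICOS did so at r = 0.88 (permutation p = 0.00037, adjusted p = 0.00455; rho = 0.75, permutation p = 0.0072, adjusted p = 0.048), and CD40L_CHICK at 0.75 (permutation p = 0.00382; rho = 0.78, permutation p = 0.00433, adjusted p = 0.0433). The Ensembl feature of ICOS did so at 0.82 (permutation p = 0.00239; rho = 0.55, permutation p = 0.07054). Without mated replicates 3 and 4 these r were 0.62, 0.64 and 0.44. CD28 and CD28_CHICK also followed this score, at r = 0.78 (permutation p = 0.02045, adjusted p = 0.0341, rho = 0.40) and 0.80 (permutation p = 0.01778, adjusted p = 0.0323, rho = 0.27). Without the same hens these were 0.54 and 0.51. Without mated replicate 4 alone they were 0.23 and 0.27, so the strength of these relations rested on that hen. CD86 in turn followed the T lymphocyte score at r = 0.72 (permutation p = 0.02301, adjusted p = 0.0354, rho = 0.36), or 0.41 without mated replicates 2 and 4. Without mated replicate 4 alone this r was 0.23.

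CD80 correlated with the T lymphocyte score at r = 0.68 (permutation p = 0.01113, adjusted p = 0.02226; rho = 0.67, permutation p = 0.02044), falling to 0.41 without mated replicates 2 and 4. For CD40LG r was 0.23 (permutation p = 0.4772; rho = 0.46, permutation p = 0.1338), and -0.09 without those hens. With each group centred on its mean, r with the T lymphocyte score was 0.91 for CD28, 0.88 and 0.90 for ICOS, 0.61 for CD80 and -0.13 for CD40LG. CD80 correlated with the macrophage and dendritic cell score at r = 0.57 (permutation p = 0.04239, adjusted p = 0.0567, rho = 0.33). That r was 0.39 without mated replicates 3 and 4, 0.29 without mated replicate 4 alone and 0.71 with each group centred. The macrophage and dendritic cell score was not fitted as a covariate. With the T lymphocyte score in the model, CD80 was 0.67 higher after mating (unadjusted p = 0.007678 in limma) and 0.45 higher after SF-infusion (unadjusted p = 0.0346 in limma). CD40LG was then 0.30 and 0.33 higher (unadjusted p = 0.02552 and unadjusted p = 0.01252 in limma), so both genes stayed past the threshold in both comparisons.

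**Figure D3:**
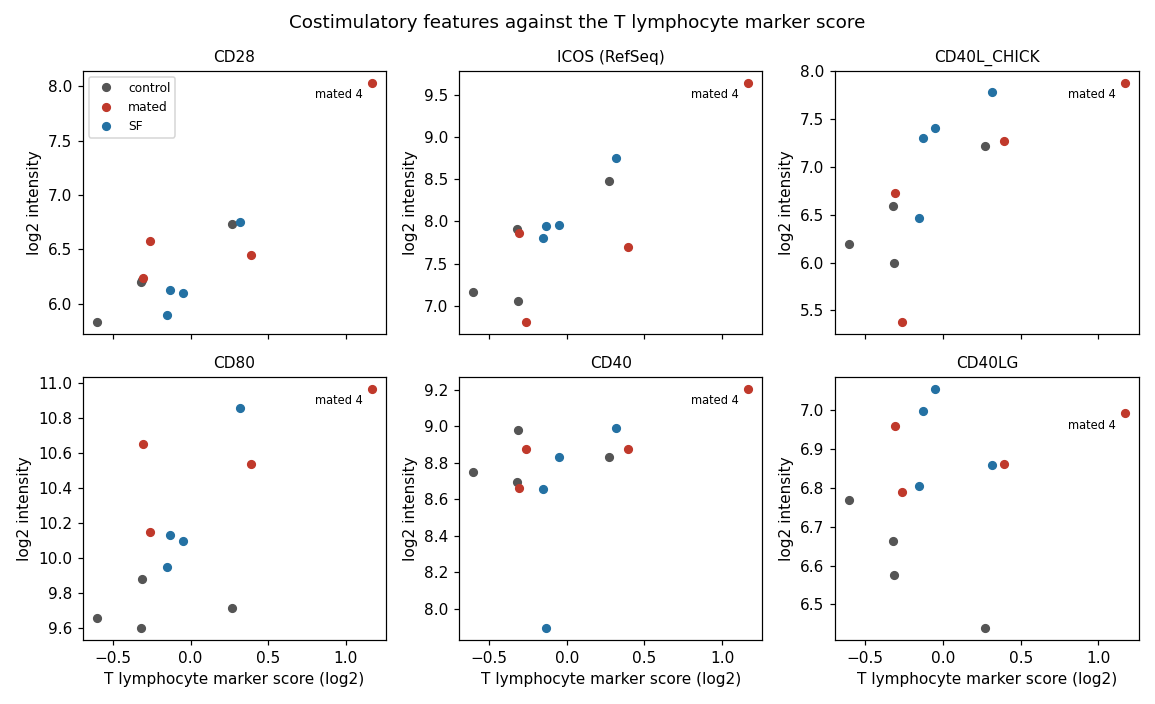
Log2 intensity of 6 costimulatory features against the T lymphocyte marker score (mean centred log2 intensity of 16 markers) on the 12 arrays, with control, mated and SF hens in different colours. CD28 (r = 0.89), ICOS (r = 0.84) and CD40L_CHICK (r = 0.74) lie along the score, while CD40LG (r = 0.23) does not, and mated replicate 4 is the point at the right of each panel.

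Markers of other cell types in the dissected tissue passed the unadjusted threshold mainly after SF-infusion. There 4.15% of all features passed as higher and 2.32% as lower. The shares were 1.35% and 0.867% after mating, and 2.04% and 2.66% between the treatments. Markers of stratified squamous epithelium had a median difference of 0.55 after SF-infusion, and 5 of 15 (GRHL3, VGLL1, TP63, KRT5 and KRT14) were higher. Genes listed as markers of the eggshell gland, with ovalbumin counted among them, had a median of -0.50, and 5 of 18 (SPP1, ITPR2, SLC4A7, CLCN5 and CALB1) were lower. After mating the medians were 0.16 and -0.48, with 0 of 15 and 1 of 18 (RARRES1, lower) past the threshold. Between the treatments they were -0.19 and 0.16, and GRHL3 and the ovalbumin gene (SERPINB14 on the array, OVAL in the list) were lower in mated hens. The ovalbumin gene was the 1 of 18 above 0 after SF-infusion (1.055, SE 1.26, not past the threshold), against the direction of its list. Smooth muscle and ciliated cell markers had medians of 0.06 and 0.17, and 4 of 12 (LRRC23, HYDIN, CCDC40 and DNAI1) were higher after SF-infusion. With 1 hen left out at a time SPP1 kept its call each time (highest p 0.04175 in limma), and each of the other calls after SF-infusion missed the threshold at least once: the highest p was 0.06415 (GRHL3) to 0.1053 (KRT14) among the 5 squamous markers, 0.08187 (ITPR2) to 0.1293 (CALB1) among the other 4 eggshell gland markers and 0.0512 (LRRC23) to 0.1126 (DNAI1) among the 4 ciliated cell markers. Control replicate 3 gave the highest p for GRHL3, TP63, CALB1, LRRC23, HYDIN and CCDC40, control replicate 2 for KRT5, VGLL1 and DNAI1, and SF replicate 3 for KRT14, ITPR2, SLC4A7 and CLCN5. CALB1, for example, was lower by 1.77 without control replicate 3 (log2 fold change -1.77), against -3.31 with all hens. RARRES1 missed the threshold without mated replicate 2 (-0.64, unadjusted p = 0.09799 in limma), and between the treatments GRHL3 did so without mated replicate 3 (-0.37, unadjusted p = 0.09612 in limma) and SERPINB14 without SF replicate 1 (-2.69, unadjusted p = 0.07682 in limma).

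The tissue score, squamous less eggshell gland, was -2.26 to 0.26 in control, -0.98 to 1.58 in mated and -0.36 to 1.54 in SF hens. Control replicates 2 and 3, the hens with the lowest tissue score, also had the lowest CD40LG. With this score in the model CD80 was 0.74 higher after mating (unadjusted p = 0.007617 in limma) and CD40LG 0.22 higher (unadjusted p = 0.04946 in limma). After SF-infusion CD80 was then 0.35 higher (unadjusted p = 0.1885 in limma) and CD40LG 0.21 higher (unadjusted p = 0.08917 in limma), neither past the threshold.

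**Figure D4:**
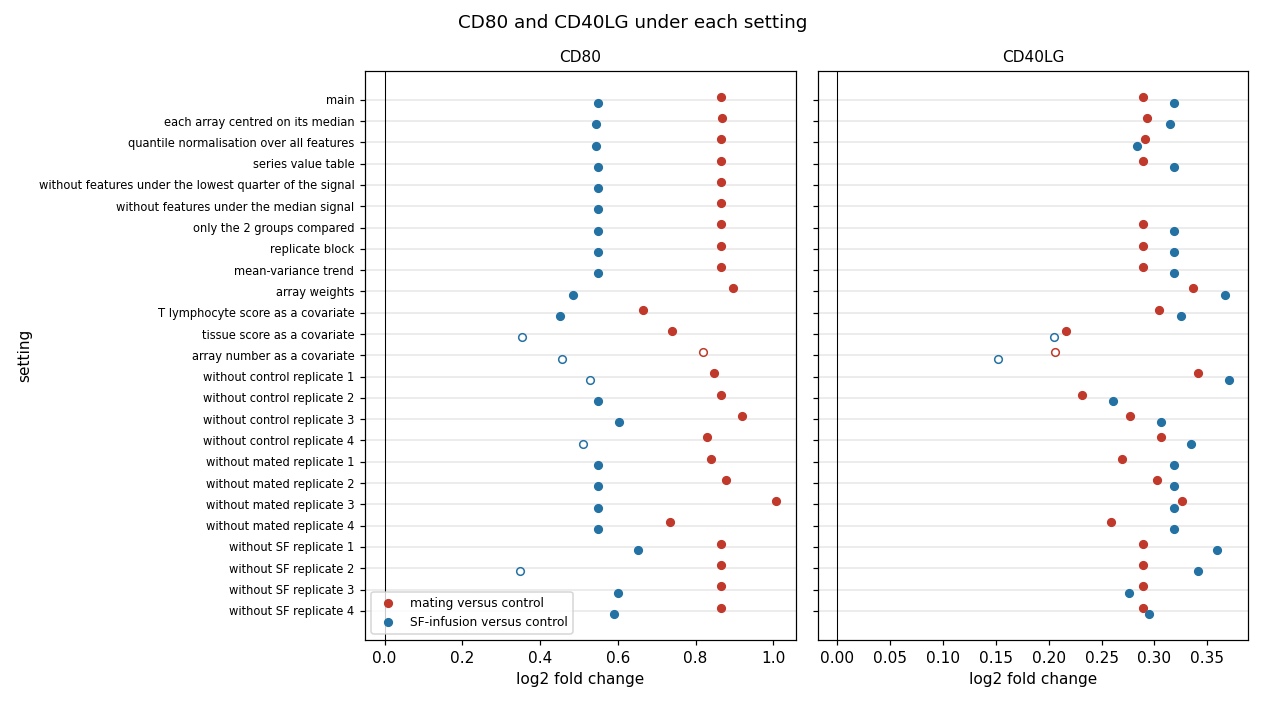
Log2 fold change of CD80 (left) and CD40LG (right) against control under each way of processing or fitting, from the limma fit, with mating in red and SF-infusion in blue. Filled points have an unadjusted p under 0.05 and open points do not, and a missing point means that the feature fell under that signal filter. The mating value of CD80 stays between 0.67 and 1.01 and is open with the array number, the SF value of CD80 is open in 5 settings, and CD40LG is open with the tissue score after SF-infusion and with the array number in both comparisons.

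The other genes of the pathway showed few calls. Over all features 2.22% passed after mating, 6.47% after SF-infusion and 4.7% between the treatments. With such shares, low counts in lists of this size are not a result about these genes. Over all features the share with a difference above 0 was 50.2% after mating, 51.7% after SF-infusion and 48.5% between the treatments, the background for the counts that follow. Those counts and medians include mated replicate 4, which had the highest mean of centred log2 intensities of the 12 hens in each pathway list. That mean was 0.77 for the B7, CD28 family and checkpoint genes and 0.47 for the TNF superfamily. It was 0.51 for CD28 signalling and 0.57 for CD40 signalling. Of 31 other B7, CD28 family and checkpoint genes listed, 19 were measured, and 0 passed in any comparison. After mating 12 of the 19 lay above 0 with a median of 0.10, and after SF-infusion 11 with a median of 0.07. Between the treatments 12 lay above 0, with a median of 0.11. CD72, a B-cell surface protein in this list, was represented by its brightest feature (0.03 after mating), while another of its features, NM_205052, was 0.76 higher after mating (SE 0.29, unadjusted p = 0.02433 in limma) and 0.95 higher in mated than in SF hens (unadjusted p = 0.00746 in limma). This feature was singled out after its values were seen.

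Among costimulatory ligands and receptors of the TNF superfamily, 14 of 22 listed were measured, and the medians were -0.01 after mating, -0.13 after SF-infusion and 0.11 between the treatments. TNFSF4, the OX40 ligand of antigen-presenting cells, was the 1 member past the threshold. It lay at 6.59, 6.60, 6.54 and 6.72 in control, at 6.77, 7.22, 7.03 and 7.42 in mated and at 6.49, 7.42, 7.54 and 6.88 in SF hens. All mated hens lay above all controls, and SF replicate 1 lay below them. TNFSF4 was 0.50 higher after mating (SE 0.22, unadjusted p = 0.04574 in limma), and without mated replicate 4 it was 0.39 higher (unadjusted p = 0.1232 in limma). The call was also lost without any 1 of the control hens, mated replicate 2 or 3, or SF replicate 4. After SF-infusion it differed by 0.47 (unadjusted p = 0.05705 in limma).

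The list for CD28 signalling held genes that carry the signal, some that restrain it, such as CBLB, and IL2 with its receptor genes. Of its 31 genes 28 were measured. After mating 21 lay above 0 (median 0.12) and after SF-infusion 18 (median 0.10), and 16 did so between the treatments (median 0.02). PIK3CD, the delta catalytic subunit of phosphoinositide 3-kinase found mainly in leukocytes, passed against control in both treatments. Control hens lay at 10.01, 10.90, 10.01 and 9.91, mated hens at 11.02, 11.04, 10.54 and 11.39 and SF hens at 10.62, 11.13, 11.16 and 11.27. Control replicate 2 lay within the range of the treated hens and the other controls lay below them all. PIK3CD was 0.79 higher after mating (SE 0.25, unadjusted p = 0.008692 in limma) and 0.84 higher after SF-infusion (SE 0.25, unadjusted p = 0.006201 in limma), and both values passed with any hen left out, though not with the array number in the model.

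IL2, the growth factor that T cells make on costimulation, passed in SF-infusion versus control with a difference of 0.24 (SE 0.09, unadjusted p = 0.02158 in limma). Its values of 3.18 to 3.64 lay below the random control on every array, and the call was lost without control replicate 2 or SF replicate 3 (0.20 for each), so this difference was not one between measured levels.

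Of the genes that act below CD40, 23 of 29 were measured, and 0 passed against control in either treatment. The medians were 0.11 after mating and 0.03 after SF-infusion. TRAF2, an adaptor that binds the tail of CD40, was 0.54 higher in mated than in SF hens (SE 0.22, unadjusted p = 0.03471 in limma), where 17 of the 23 lay above 0 (median 0.05). The TRAF2 call was lost without mated replicate 1, 2 or 4 or SF replicate 2 or 4, and the lowest value was 0.37 without SF replicate 4 (unadjusted p = 0.1078 in limma).

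Of 20 T lymphocyte markers 16 were measured, and 14 lay above 0 in each comparison, with medians of 0.51 after mating, 0.38 after SF-infusion and 0.14 between the treatments. TCF7, a transcription factor of T cells that epithelia also express, went the other way after SF-infusion. It differed there by -1.29 (SE 0.50, unadjusted p = 0.02564 in limma). Between the treatments it was 1.23 higher in mated than in SF hens (unadjusted p = 0.03219 in limma), the direction of most of the list. The SF call was lost without control replicate 2 or 3 or SF replicate 2 or 3 (-0.96 without control replicate 3, unadjusted p = 0.08087 in limma). The call between the treatments was lost without mated replicate 3 or 4 or SF replicate 2, 3 or 4 (0.96 without mated replicate 3, unadjusted p = 0.0942 in limma). The counts and medians of this list with mated hens include mated replicate 4 and were not computed without it. Its T lymphocyte score was 1.17, against -0.31 to 0.39 in the other mated hens and -0.61 to 0.27 in controls.

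Of 18 B lymphocyte markers 14 were measured, with medians of 0.22, 0.09 and 0.14, and PAX5, the transcription factor of the B cell lineage, was 0.75 higher in mated than in SF hens (SE 0.24, unadjusted p = 0.009112 in limma). PAX5 passed with any hen left out, and was 0.49 higher without mated replicate 4 (unadjusted p = 0.01168 in limma). It did not pass under every other setting (highest unadjusted p = 0.06668 in limma). Against control PAX5 passed in neither treatment, with 0.38 after mating (unadjusted p = 0.1353 in limma) and -0.37 after SF-infusion (unadjusted p = 0.15 in limma). Of 25 macrophage and dendritic cell markers 18 were measured, with medians of 0.22, 0.12 and 0.14. The medians of both lists after mating and between the treatments include mated replicate 4. Its B lymphocyte score was 0.56, against -0.04 to 0.03 in the other mated hens and -0.22 to 0.08 in controls. Its macrophage and dendritic cell score was 1.08, against -0.54 to 0.01 and -0.40 to 0.06. The medians were not computed without this hen. FLT3, a receptor of dendritic cell precursors, was 0.94 higher after mating (SE 0.41, unadjusted p = 0.0437 in limma), or 0.66 without mated replicate 4 (unadjusted p = 0.1326 in limma), 1 of 7 hens whose absence ended the call. CD14, a coreceptor for bacterial lipopolysaccharide on macrophages, was 0.32 higher in mated than in SF hens (unadjusted p = 0.03745 in limma), or 0.23 without mated replicate 4 (unadjusted p = 0.1131 in limma), and the call was also lost without mated replicate 3 or SF replicate 1, 3 or 4, while another feature of CD14 differed by 0.12 (unadjusted p = 0.2535 in limma).

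The named genes whose levels ran closest to CD80 over the 12 hens, among 6805 features at or above the median signal, were TRAF7 (r = 0.87), ARPC5 (0.85), the gene listed as BLB2 on the array and BLB1 in the reference (0.83), C7orf41, now MTURN (0.82), and PHOSPHO2 (0.82). BLB2 is a class II histocompatibility chain of antigen-presenting cells. For CD40LG, among 6806 features, they were the gene listed as ORAI2 on the array and ORAI3 in the reference (0.86), SH3TC2 (0.85), NANS (0.81), CYR61 (0.81) and FAM118B (0.80). Once each group was centred on its mean, the values for CD80 were 0.87, 0.67, 0.92, 0.84 and 0.54 in the same order, and those for CD40LG 0.83, 0.79, 0.81, 0.46 and 0.53. These correlations describe 12 arrays of 1 slide and were picked as the highest among the features compared.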

How the data were processed

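Total RNA of the UVJ was labelled with Cy3 after cDNA synthesis and hybridised to 1-colour NimbleGen arrays, 1 hen per array according to the methods, so p-values measure the spread between hens within this experiment. The authors deposited linear intensity values after robust multichip averaging (RMA), which adjusts background, applies quantile normalisation between arrays and summarises the probes of a feature. This makes the arrays' distributions alike, so a shift common to most features cannot be seen. The submitters' notes also name limma. For the array design, build and annotation were not given in the sources used here. The probe number of each feature was another deposited column. The deposited series table repeated these intensities for 37364 features.

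The intensities were converted to log2 with no pseudocount and no filter. A linear model with a mean per group was fitted to all 12 arrays over 37374 features in limma 3.58.1 (R 4.3.3) with empirical Bayes moderation, with the Benjamini-Hochberg adjustment over all features. Tests were two-sided. The fit was tested on simulated data with added changes larger than any difference of the costimulatory features given here. That check therefore does not bear on differences of their size. Correlations used 100000 permutations (scipy 1.17.1, Python 3.11.15). Where genes of the 10 lists had several features, the brightest stood for the gene. Named genes were every costimulatory feature, up to 6 members of each list past an unadjusted p of 0.05, and the 5 genes most like CD80 and CD40LG. Outside this rule, and after their values were seen, ICOSLG (the ligand of ICOS), the defining T cell markers CD3E, CD3D and CD8A, and the second features of CD8A, CD14 and CD72 were also named. The neighbours of CD80 and CD40LG in the reference table were added likewise. The members and lists were chosen with earlier results of these data known, including the study's own gene lists, so their counts are not independent evidence.

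Other settings tried were arrays centred on their medians, a second quantile normalisation, the series table as source, a minimum signal (the 25th percentile or the median of all features), a fit of 2 groups at a time, the replicate number as a block, a mean-variance trend, array weights, a T lymphocyte score, a tissue score or the array number as covariate, an exact permutation test, and each array left out. Arrays give no read depth, and their number limits the precision.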

Additional observations from a re-analysis of the deposited data

Results flagged for a closer look

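Of 30 groups of 4 hens examined (10 features in 3 groups), 3 held a hen far from the others by Dixon's criterion, where chance gives about 5% of groups. CD28_CHICK lay at 8.27 in control replicate 2, while the other controls lay between 7.49 and 7.53. CD28_CHICK lay at 9.91 in mated replicate 4, the hen that also had the highest T lymphocyte score, 1.17. The RefSeq feature of ICOS lay at 8.76 in SF replicate 2, and the other SF hens lay between 7.81 and 7.96. The features that passed against control, CD80 and CD40LG, held no such hen, although SF replicate 2 of CD80 lay at 10.86 beside 9.95 to 10.13 in the other SF hens.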

How the results depend on the processing

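CD80 and CD40LG kept their direction against control under every alternative run, and CD80 passed the unadjusted threshold after mating in all except the fit with the array number. Of the 345 values of single features under alternatives other than leaving out a hen, 296 kept both direction and side of the threshold and 40 changed sign, each of them a value that had not passed. Part of those kept were so by construction. The exact permutation test reuses the main difference and cannot change its sign, and the series table repeats the same intensities. Of the 8 features, 2 passed against control in either treatment and 0 between treatments. These counts were 1, 1 and 0 among features above the 25th percentile of the signal (3 of the 8 tested) and 1, 1 and 0 above the median signal (1 tested), because CD40LG was left out there. They were 2, 0 and 0 with the tissue score, 0, 0 and 1 (CD28) with the array number and 2, 2 and 1 (CD80) with array weights. With a hen left out they were 2 in each case after mating, 1 to 2 after SF-infusion, and 0 to 1 between treatments, with 1 call without mated replicate 3 (CD80), mated replicate 4 (CD86) or SF replicate 2 (CD80). The replicate number as a block left 2, 2 and 0 calls. Same-numbered hens showed a mixed pattern, with correlations of -0.36 to 0.62 across features. Control and mated hens deviated together for replicates 3 (0.62) and 4 (0.51), while control and SF hens had negative values for every replicate (-0.11 to -0.35). The numbers were not taken as pairs. Over all features the calls ranged from 191 to 2108 after mating, from 942 to 4064 after SF-infusion and from 370 to 2817 between treatments.

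Values that changed sign are given as log2 fold changes, and the cause was not tested. After mating, the T lymphocyte score as covariate gave CD40L_CHICK -0.33, ICOS (Ensembl) -0.38, ICOS (RefSeq) -0.40, CD86 -0.48, CTLA4 -0.070 and CD40 -0.068. The tissue score gave CD40L_CHICK -0.16, ICOS (Ensembl) -0.043, ICOS (RefSeq) -0.091 and CD86 -0.34. The array number gave CD40L_CHICK -0.17, ICOS (Ensembl) -0.24, ICOS (RefSeq) -0.30, CD86 -0.42, CTLA4 -0.31, CD28 -0.24 and FLT3 -0.012, and array weights gave ICOS (Ensembl) -0.045 and CTLA4 -0.22. After SF-infusion, the T lymphocyte score gave ICOS (Ensembl) -0.027 and CD86 -0.08. The tissue score gave CD40L_CHICK -0.0088, ICOS (Ensembl) -0.17, ICOS (RefSeq) -0.23 and CD86 -0.59. The array number gave CD40L_CHICK -0.23, ICOS (Ensembl) -0.69, ICOS (RefSeq) -0.84, CD86 -0.98, CD40 0.0079, VGLL1 -2.47, TP63 -2.08, KRT5 -1.04, KRT14 -1.28 and SLC4A7 0.22. Between treatments, quantile normalisation gave ICOS (Ensembl) 0.0022 and CD40LG 0.0075. The tissue score gave ICOS (Ensembl) 0.13, ICOS (RefSeq) 0.14, CD86 0.25 and CD40LG 0.012, and the array number gave CD40L_CHICK 0.064, ICOS (Ensembl) 0.45, ICOS (RefSeq) 0.54, CD86 0.56 and CD40LG 0.054.

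With a hen left out, values that changed sign ranged after mating from -0.039 to 0.80 (CD40L_CHICK), -0.21 to 0.50 (ICOS, Ensembl), -0.19 to 0.75 (ICOS, RefSeq), -0.47 to 0.65 (CD86), -0.026 to 0.79 (CTLA4) and -0.0093 to 0.17 (CD40), the negative values all without mated replicate 4. After SF-infusion they ranged from -0.21 to 0.13 (CD28), -0.26 to 0.15 (CD28_CHICK) and -0.35 to 0.0125 (CD40). Between treatments they ranged from -0.78 to 0.0565 (CD40L_CHICK), -0.49 to 0.22 (ICOS, Ensembl), -0.66 to 0.28 (ICOS, RefSeq), -0.71 to 0.40 (CD86) and -0.0704 to 0.0131 (CD40LG). Of the calls of list genes, 110 of 324 with a hen left out missed the threshold.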
